A study of Mus musculus with 11 samples.

Results

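Expression of 10 genes, the blood and vessel transcription factor Tal1 and 9 genes of blood and endothelial cells (Lyl1, Gata2, Sox7, Sox17, Sox18, Erg, Cdh5, Pecam1 and Kdr), was read in 11 mouse tumour libraries of 4 medulloblastoma models. The genes were taken from the count table by symbol. They were selected on their measured levels in these libraries, so their levels and fold changes are given as descriptions with no test. All 10 were among the 38406 genes of the table, and 7 of them were among the 15228 genes with enough counts to be tested. Lyl1, Sox17 and Sox18 fell below that limit.

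The samples were fresh-frozen cerebellar tumours of strain CD1 mice, and every model carried MYC. The MYC/Gfi1 tumours (n = 2) carried MYC and Gfi1 expressed constitutively, and the MYC/Otx2 tumours (n = 3) carried MYC and Otx2 expressed constitutively. The series describes both as mouse models of Group 3 medulloblastoma published earlier. In the S100b-cell MYC/Gfi1 tumours (n = 3) the same pair of genes was expressed in S100b-positive cells. In the N1ICD tumours (n = 3), Math1-positive cells expressed MYC and Gfi1 together with N1ICD, the part of Notch1 that acts inside the cell. The labels give no age, and the sources used here name no promoter, vector or number of animals for any group. The study compared the Math1-cell and S100b-cell tumours with both constitutive models.

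As background, Tal1 is a basic helix-loop-helix factor required for the first blood cells and used again in endothelium. It binds DNA at E-boxes as a dimer with an E protein such as Tcf3, Tcf4 or Tcf12, and in blood cells it joins a complex with the bridging proteins Lmo2 and Ldb1 and a Gata factor. Lyl1 is its close relative in blood and vessels. Gata2 directs blood progenitors, endothelium and, in the embryonic brain, the choice of a GABAergic neuron fate, which it makes together with Tal1. Sox7, Sox17 and Sox18 are the SoxF factors of vessel and lymphatic formation, and Erg is an ETS factor that keeps endothelial cells in their state. Cdh5 (VE-cadherin) and Pecam1 (CD31) are adhesion proteins of the junctions between endothelial cells, and Kdr (VEGFR2) is the main receptor for VEGF on vessels. Tumour vessels in the brain are built of such endothelial cells wrapped by pericytes.

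Depth was lowest in the N1ICD libraries (2.58 to 3.38 M counts) and highest in the S100b-cell libraries (12.77 to 15.19 M). Levels are given as CPM, the counts of a gene per M counts of its library over the tested genes, after TMM scaling. Mitochondrially encoded genes took 5.18% to 6.00% of counts in the constitutive models, 14.7% to 18.5% in the S100b-cell and 23.2% to 27.6% in the N1ICD libraries. The library names follow 3 styles, one for both constitutive models, one for the S100b-cell tumours and one for the N1ICD tumours. What sets these name styles apart (a run or a date, which no label gives) cannot be told apart from the model, except between the constitutive models. Replicate 2 of the MYC/Gfi1 tumours stood apart from replicate 1, with Zic1, a marker of the granule neuron lineage, at 1626 against 22.8 CPM. Of 12 cerebellar tumour markers, the proliferation gene Top2a was at 424 to 1079 CPM in all libraries, while Zic1 was at 66.9, 7.67 and 9.33 CPM in the N1ICD libraries. Low Zic1 was not particular to them, as S100b-cell replicate 1 had 39 counts of it in 15.19 M. No label says that replicates came from separate animals, so the errors and p-values measure the spread between these libraries, which may be technical. Nor can a bulk library tell fewer cells of a type from less RNA per cell.

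The promoter sequences of Tal1 and Kdr are shown because Tal1 had the largest difference between models of the 10 genes and Kdr holds the E-box letters that Tal1 dimers prefer. The table of RefSeq promoters (build GRCm38.p6) held 9 promoters of 5 of the genes, Tal1, Lyl1, Gata2, Erg and Kdr, and each was searched over the 250 bases before the start. Capitals mark matches on either strand to motifs of 4 kinds. The ETS factor motif searched was AGGAAG. For Gata factors it was GATAA, which is printed as its reverse complement where it lies on the other strand. The E-box that Tal1 dimers bind was searched as CAGATG. For RBPJ, the protein that brings N1ICD to DNA, it was TGGGAA. Coordinates are 1-based, and the sequences run 5′ to 3′ on the gene's strand. The window of Kdr leaves out 3 bases that belong to an exon.
Tal1, first start, chr4:115056176-115056425, plus strand: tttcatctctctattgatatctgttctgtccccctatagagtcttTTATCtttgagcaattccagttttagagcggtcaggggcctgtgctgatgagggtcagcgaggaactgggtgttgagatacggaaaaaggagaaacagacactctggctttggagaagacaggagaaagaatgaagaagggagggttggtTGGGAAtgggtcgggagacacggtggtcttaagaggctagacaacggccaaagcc
Tal1, second start, chr4:115057561-115057810, plus strand: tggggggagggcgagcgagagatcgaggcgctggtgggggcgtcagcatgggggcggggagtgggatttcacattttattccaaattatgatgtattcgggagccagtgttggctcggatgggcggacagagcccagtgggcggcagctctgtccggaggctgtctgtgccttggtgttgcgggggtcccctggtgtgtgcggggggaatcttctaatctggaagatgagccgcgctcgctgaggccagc
Kdr, chr5:75978459-75978705, minus strand: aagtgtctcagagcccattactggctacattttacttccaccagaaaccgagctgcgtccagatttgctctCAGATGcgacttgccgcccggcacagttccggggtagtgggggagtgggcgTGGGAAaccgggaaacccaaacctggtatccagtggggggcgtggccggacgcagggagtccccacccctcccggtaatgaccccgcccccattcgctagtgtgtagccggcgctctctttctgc
The first Tal1 window holds GATAA letters 205 bases before the start and TGGGAA 55 bases before it, and the second holds neither. The Kdr window holds CAGATG 179 bases and TGGGAA 128 bases before its RefSeq start. Of the promoters not printed, 1 of 3 Erg starts (95459348 on chromosome 16) holds ETS letters 40 bases, Gata letters 103 bases and RBPJ letters 16 bases before it, and the other starts of Erg, and those of Gata2 and Lyl1, hold none of the 4 motifs. In 32851 mouse promoters of the same length, AGGAAG was present in 29.5%, GATAA in 22.6%, TGGGAA in 21.6% and CAGATG in 14.4%. The matches are letters only, and 3′ tags do not show which start was used.

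Tal1 (chromosome 4, 115056426 to 115071755, plus strand, GRCm38) was a gene of the N1ICD tumours in these data, and mainly of 2 of them. It had 9, 554 and 712 counts in N1ICD replicates 1, 2 and 3. Elsewhere it had 0 and 4 counts in the MYC/Gfi1, 10, 4 and 0 in the MYC/Otx2 and 7, 10 and 4 in the S100b-cell libraries. N1ICD replicates 2 and 3 thus stood far above the 8 libraries of the other models. The 9 counts of replicate 1 lay within their range of counts. In this library of only 2.68 M counts they amounted to 3.86 CPM, 2.73-fold above the highest library of the other models.

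In CPM, Tal1 was at 3.86, 193 and 289 in the N1ICD libraries, 162 ± 145 CPM (SD, n = 3). It was at 0.290 ± 0.411 CPM in the MYC/Gfi1 (SD, n = 2), 0.637 ± 0.716 in the MYC/Otx2 and 0.486 ± 0.192 in the S100b-cell tumours (SD, n = 3 each). The highest library of the other models was MYC/Otx2 replicate 1 at 1.41 CPM, and the 2 high N1ICD libraries were 137-fold and 205-fold above it. The exact Poisson 95% interval of N1ICD replicate 1, 1.76 to 7.32 CPM, overlapped that of MYC/Otx2 replicate 1, 0.677 to 2.60 CPM. Such intervals cover counting error only. N1ICD replicates 2 and 3 were also 50.1-fold and 74.9-fold above replicate 1 of their own model.

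The fitted log2 fold change of Tal1 was 9.16 ± 2.06 (SE) for N1ICD against MYC/Gfi1, 8.33 ± 1.57 against S100b-cell and 8.01 ± 1.58 against MYC/Otx2 tumours. These comparisons share the N1ICD libraries. Among the other models the fitted Tal1 differences were under their SE, at 1.15 ± 1.99 for MYC/Otx2 against MYC/Gfi1, 0.83 ± 1.94 for S100b-cell against MYC/Gfi1 and -0.32 ± 1.49 for S100b-cell against MYC/Otx2. Tal1 was also high beside the endothelial genes of the same libraries. Its level per summed level of Cdh5, Pecam1 and Kdr was 0 to 0.0207 outside the N1ICD tumours and 0.0333, 0.979 and 1.72 inside them.

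**Figure D1:**
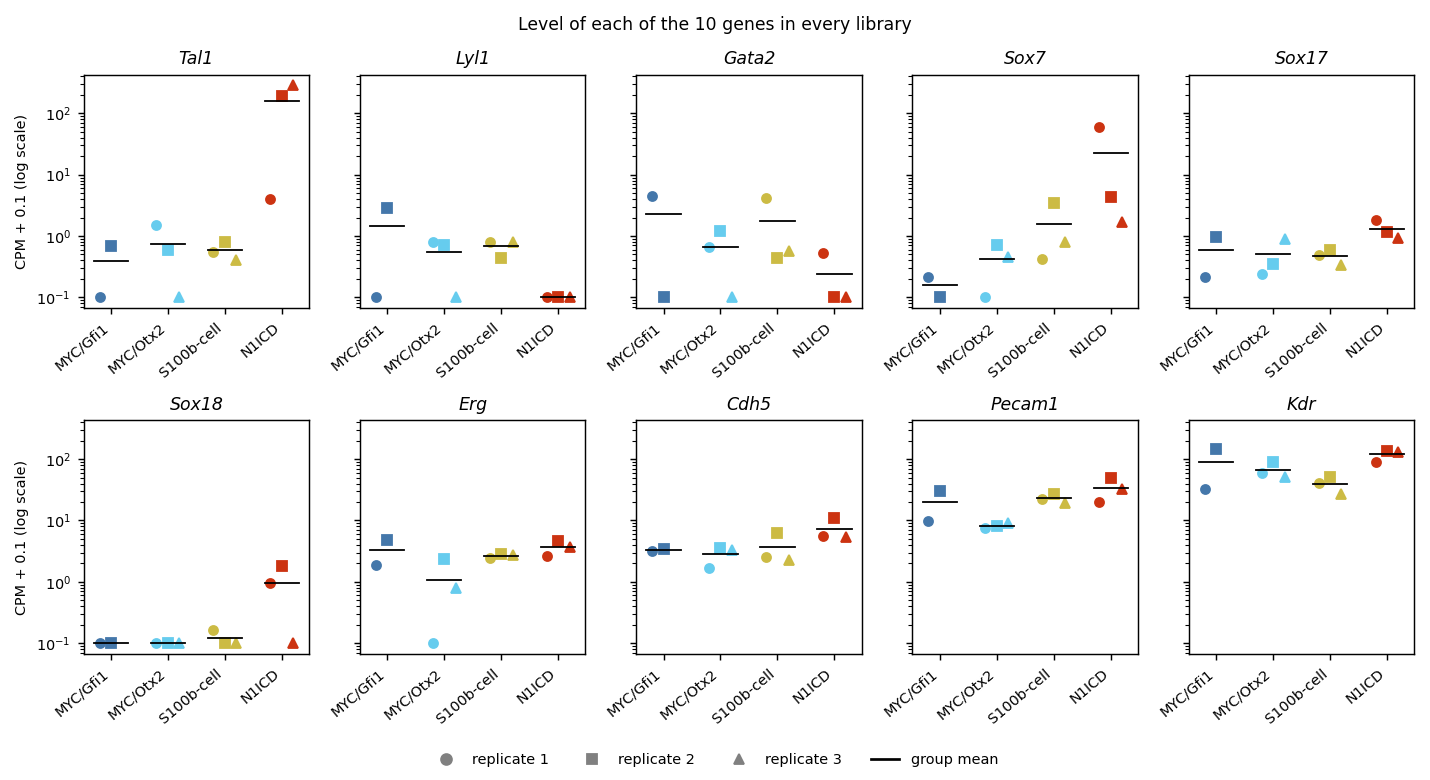
Level of each of the 10 genes in every library, in CPM plus 0.1 on a log scale (symbols are replicates, bars are group means, and S100b-cell stands for the S100b-cell MYC/Gfi1 tumours). Tal1 is at 193 and 289 CPM in N1ICD replicates 2 and 3, Sox7 is at 60.9 CPM in N1ICD replicate 1, and Kdr, Pecam1, Cdh5 and Erg spread over a narrower range.

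The genes beside Tal1 on chromosome 4 were read to see whether its level was shared by its neighbours. Pdzk1ip1, which encodes a small membrane protein, starts 16952 bases past the 3′ end of Tal1 on the same strand. It was at 0.857, 59.3 and 146 CPM in the N1ICD libraries. It was at 1.17 and 0 CPM in the MYC/Gfi1, 0.848, 0 and 0 in the MYC/Otx2 and 0.324, 2.84 and 6.96 in the S100b-cell libraries. Pdzk1ip1 was thus high in the N1ICD libraries where Tal1 was high, and within the range of the other models in replicate 1.

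By edgeR's quasi-likelihood test with Benjamini-Hochberg adjustment, Pdzk1ip1 was higher in N1ICD than in MYC/Otx2 tumours, by 7.95 ± 2.06 on the log2 scale (adjusted p = 0.0238). This call was kept in 9 of 15 alternatives and lost, among others, without any one MYC/Otx2 library or without N1ICD replicate 3. Its fold changes of 6.78 ± 2.29 against MYC/Gfi1 (edgeR adjusted p = 0.0799) and 4.35 ± 1.64 against S100b-cell tumours (edgeR adjusted p = 0.198) did not pass. Stil, a centrosome gene whose deletion joins it to TAL1 in human T-cell leukaemia, ends 13229 bases before Tal1. Stil was at 8.57, 10.5 and 12.2 CPM in the N1ICD libraries against 2.21 and 1.02 in the MYC/Gfi1, and the difference of 2.67 ± 0.65 passed (edgeR adjusted p = 0.0303). It was kept in 10 of 16 alternatives and lost, among others, without MYC/Gfi1 replicate 2, N1ICD replicate 2 or N1ICD replicate 3. Cmpk1, a nucleotide kinase gene 69184 bases before Tal1, was higher in N1ICD than in MYC/Otx2 tumours by 1.42 ± 0.41 (edgeR adjusted p = 0.0333), a call lost without any one MYC/Otx2 library and in 6 further alternatives. Cyp4x1, 34567 bases past Tal1 on the other strand, passed in no comparison with N1ICD, and Foxd2 and Foxe3 had too few counts to be tested. Stil and Cmpk1 spread less between N1ICD replicates than Tal1 and Pdzk1ip1 did, with Cmpk1 at 8.57, 25.8 and 19.1 CPM.

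**Figure D2:**
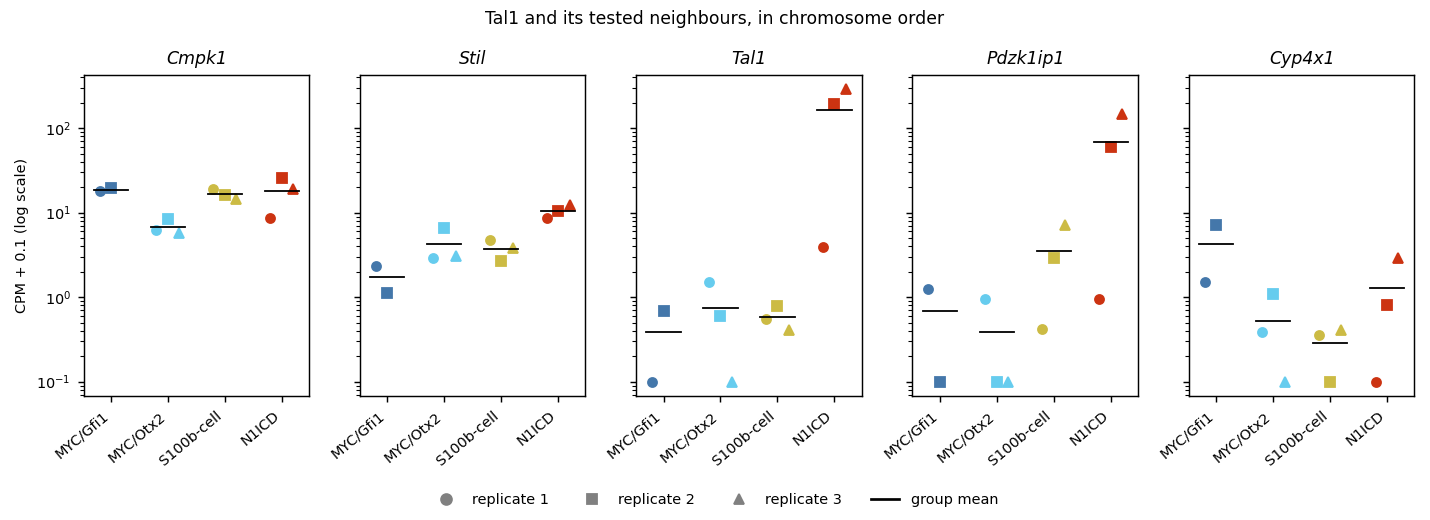
Tal1 and its tested neighbours in chromosome order, in CPM plus 0.1 on a log scale, 1 symbol per library and bars for group means. Pdzk1ip1 is at 59.3 and 146 CPM in the 2 N1ICD libraries with high Tal1, and Cyp4x1, on its other side, is at 2.84 CPM or less in all 3.

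Lyl1, the relative of Tal1 (chromosome 8, 84701457 to 84704715, plus strand), had no count in the N1ICD libraries. It had 0 and 19 counts in the MYC/Gfi1, 5, 5 and 0 in the MYC/Otx2 and 11, 5 and 9 in the S100b-cell libraries. Its highest level was 2.76 CPM in MYC/Gfi1 replicate 2. A count of 0 over the N1ICD group allows up to 0.391 CPM (3 counts over the group), while the pooled level was 0.421 CPM for MYC/Otx2 and 0.585 CPM for S100b-cell tumours. Lyl1 lies within Nfix on the opposite strand, and no source used here gives the strand setting of the counting, so its few counts are uncertain.

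Gata2 (chromosome 6, 88193891 to 88207032, plus strand) had counts mostly in single libraries. It had 38 and 0 counts in the MYC/Gfi1, 4, 9 and 0 in the MYC/Otx2, 64, 5 and 6 in the S100b-cell and 1, 0 and 0 in the N1ICD libraries. MYC/Gfi1 replicate 1 and S100b-cell replicate 1 were at 4.43 and 4.14 CPM and no other library exceeded 1.12 CPM. The groups overlapped in every comparison. The fitted difference of N1ICD against MYC/Gfi1, -3.92 ± 2.29 on the log2 scale and rests on 1 count in the N1ICD group and on MYC/Gfi1 replicate 1, since replicate 2 had none. No difference in Gata2 between models can be drawn from these libraries.

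The known partners of Tal1 were examined as a list of 12 genes, 11 of them tested. Against MYC/Otx2 tumours, N1ICD tumours were higher for Lmo2, Tcf4, Cbfa2t3 (the corepressor ETO2) and Ssbp4 (which steadies Ldb1 complexes), lower for Ssbp3, and 6 did not pass. Lmo2 was at 5.14, 6.62 and 3.25 CPM in the N1ICD libraries against 1.55, 0.498 and 0.462 CPM in the MYC/Otx2 libraries. The log2 differences were 2.58 ± 0.62 for Lmo2 (edgeR adjusted p = 0.0176), 3.72 ± 0.81 for Cbfa2t3 (0.0122) and 1.36 ± 0.29 for Ssbp4 (0.0105). Over all tested genes this comparison called 12.0% higher and 9.76% lower. Without MYC/Otx2 replicate 2 or 3, or without N1ICD replicate 2, the 5 calls became 3. Lmo2 was at 6.64 and 6.83 CPM in the MYC/Gfi1 and 5.50, 9.34 and 6.02 CPM in the S100b-cell libraries, a range that the N1ICD libraries overlapped or lay below. Levels above MYC/Otx2 tumours were not particular to N1ICD tumours. S100b-cell tumours were also higher than these for Lmo2, Tcf4, Ssbp4, Runx1 and Ssbp2 (17.9% of all tested genes called in either direction). MYC/Otx2 tumours were lower than MYC/Gfi1 tumours for Lmo2, Tcf4 and Cbfa2t3 (3.03% called lower), kept in 9, 6 and 4 of 16 alternatives.

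Against MYC/Gfi1 tumours 1 partner was higher in N1ICD tumours (Ssbp4) and 1 lower (Ssbp3), both lost without MYC/Gfi1 replicate 2, where the calls over all tested genes were 11.5%. Against S100b-cell tumours no partner passed with edgeR (2 at an unadjusted p under 0.05, 1 by DESeq2), where 1.21% of all tested genes did. The E proteins Tcf3 and Tcf12 passed in none of the 3. Gata1, the erythroid partner, was at 0 in all N1ICD libraries and reached 12.9 CPM in MYC/Gfi1 replicate 2 (named after its values were seen).

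The genes that act with Gata2 and Tal1 in GABAergic neurons were a feature of the MYC/Otx2 tumours instead. Of 11 tested genes of this list none was higher in N1ICD than in MYC/Otx2 tumours and 4 were lower, Helt, Tal2 and Vsx1 among them. Over all tested genes 12.0% were called higher and 9.76% lower there. Tal2, the third relative of Tal1 and Lyl1, was at 17.7, 4.98 and 10.6 CPM in MYC/Otx2 libraries and had 0 counts in all N1ICD libraries, at least 28.3-fold lower (floor of 3 counts over the group, edgeR adjusted p = 0.00465). Helt, a factor of midbrain GABAergic neurons, was at 172 CPM on average in MYC/Otx2 and at 0 in N1ICD tumours, at least 440-fold lower (edgeR adjusted p = 0.0103). Vsx1, a retina and spinal cord factor, was at least 154-fold lower (edgeR adjusted p = 0.00174). The fits for Tal2, Helt and Vsx1 passed in each of 16 alternatives. Zfpm1, the Gata cofactor FOG1, was at 1.71, 1.05 and 1.62 CPM in N1ICD libraries against 22.6 and 18.2 CPM in MYC/Gfi1 libraries, 3.80 ± 0.58 lower on the log2 scale (edgeR adjusted p = 0.00695).

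Genes of blood cells were read as separate lists. Of 12 erythroid genes 2 were tested, the alpha globin genes Hba-a1 and Hba-a2, near-identical copies whose reads may be shared. Hba-a1 was at 201, 347 and 43.0 CPM in the N1ICD libraries, lowest in the library with the most Tal1, and at 0.231 to 142 CPM elsewhere. Both were higher in N1ICD than in MYC/Otx2 tumours, by 5.04 ± 1.52 for Hba-a1 (edgeR adjusted p = 0.0405) and 5.83 ± 1.79 for Hba-a2 (edgeR adjusted p = 0.0432), calls kept in 10 and 8 of 16 alternatives. Both were lost without MYC/Otx2 replicate 1 or 3, S100b-cell replicate 3 or N1ICD replicate 1 or 2, and 1 of them without MYC/Otx2 replicate 2 or S100b-cell replicate 1. Neither passed against MYC/Gfi1 or S100b-cell tumours with edgeR (0 at an unadjusted p under 0.05 in each). Of the 9 tested T-lineage genes 1, Bcl11b, was lower in N1ICD than in MYC/Gfi1 tumours, where 6.05% of all tested genes were. This call was lost in 11 of 16 alternatives. None passed with edgeR against S100b-cell (3 at an unadjusted p under 0.05, 1 by DESeq2) or MYC/Otx2 tumours (2 and 2). The summed level of the T-lineage list was 6.00 to 28.4 CPM in N1ICD and 27.0 to 136 CPM in the other libraries. Bcl11b alone was at 1.71, 0.697 and 15.0 CPM in the N1ICD and at 14.0 to 111 CPM in the other libraries. The sum follows this gene in large part, so it does not show that the other genes of the list were lower. Ptcra of early T cells was at 0 in all 11 libraries (named after its values were seen). Genes of megakaryocytes, mast cells and blood progenitors passed in none of the 3 N1ICD comparisons with edgeR (7 tested, with 1, 1 and 2 at an unadjusted p under 0.05 and 1, 0 and 1 by DESeq2, against MYC/Gfi1, S100b-cell and MYC/Otx2 tumours). The summed leukocyte and microglial list was 177 to 317 CPM in N1ICD and 137 to 936 CPM in the other libraries. Of its 10 tested genes, Itgam and Ptprc were higher and C1qc lower in N1ICD than in MYC/Otx2 tumours. Aif1, C1qa and C1qc, genes of microglia and macrophages, were lower than in MYC/Gfi1 tumours, and C1qc alone was lower than in S100b-cell tumours. Over all tested genes, 12.0% were called higher and 9.76% lower against MYC/Otx2 tumours. The shares were 6.05% lower against MYC/Gfi1 and 1.21% in either direction against S100b-cell tumours. The 3 calls against MYC/Otx2 became 0 without MYC/Otx2 replicate 1 or N1ICD replicate 2, and 1 without MYC/Otx2 replicate 2 or any one MYC/Gfi1 or S100b-cell library. Those against MYC/Gfi1 became 1 without N1ICD replicate 2 or 3 or MYC/Gfi1 replicate 2. The call against S100b-cell tumours was lost without any one S100b-cell or N1ICD library or MYC/Otx2 replicate 2, and 2 genes were called without MYC/Otx2 replicate 3.

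Of the SoxF factors, Sox7 (chromosome 14, 63943673 to 63950732, plus strand) was high in the one N1ICD library where Tal1 was low. It had 142, 12 and 4 counts in N1ICD replicates 1, 2 and 3, which is 60.9, 4.18 and 1.62 CPM. Elsewhere it had 1 and 0 counts in the MYC/Gfi1, 0, 5 and 3 in the MYC/Otx2 and 5, 48 and 9 in the S100b-cell libraries. The highest of these, S100b-cell replicate 2, was at 3.32 CPM, between N1ICD replicates 2 and 3.

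N1ICD replicate 1 was 14.6-fold and 37.5-fold above replicates 2 and 3 for Sox7, and 18.3-fold above the highest library of another model. The fitted log2 fold change of Sox7 was 6.01 ± 1.65 for N1ICD against MYC/Otx2 and 3.92 ± 1.44 against S100b-cell tumours. Without N1ICD replicate 1 these were 3.10 and 1.01, so most of the difference on the CPM scale came from 1 library. No fold is given against MYC/Gfi1 tumours, which had 1 count in all. Tal1 and Sox7 deviated from their group means in opposite directions (Pearson's r = -0.80 over 11 libraries on the log2 scale, a description that rests mainly on the N1ICD libraries).

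Sox17 (chromosome 1, 4490931 to 4497354, minus strand) was low in all models, with 1 and 6 counts in the MYC/Gfi1, 1, 2 and 7 in the MYC/Otx2, 6, 7 and 3 in the S100b-cell and 4, 3 and 2 in the N1ICD libraries. The N1ICD tumours were at 1.19 ± 0.469 CPM (SD, n = 3) and the other groups at 0.369 to 0.494 CPM on average. The N1ICD libraries, at 1.71, 1.05 and 0.812 CPM, lay above every MYC/Otx2 and S100b-cell library, the nearest being MYC/Otx2 replicate 3 at 0.809 CPM, and overlapped with MYC/Gfi1 replicate 2 at 0.871 CPM. Sox17 overlaps the gene model Gm37587 on the opposite strand. Sox18 (chromosome 2, 181669836 to 181671640, minus strand) had 2, 5 and 0 counts in the N1ICD libraries, 1 count in S100b-cell replicate 1 and 0 in the 7 others. Both are too thinly counted for a comparison of models.

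Erg (chromosome 16, 95359169 to 95586593, minus strand) was at 2.57, 4.53 and 3.65 CPM in the N1ICD libraries. It was at 1.75 and 4.65 CPM in the MYC/Gfi1, 0, 2.24 and 0.693 in the MYC/Otx2 and 2.33, 2.70 and 2.66 in the S100b-cell libraries. The MYC/Otx2 tumours had the lowest mean but overlapped with the MYC/Gfi1 tumours. The other 3 models overlapped with each other. The fitted log2 difference of N1ICD tumours was 1.85 ± 1.02 against MYC/Otx2, 0.49 ± 0.97 against S100b-cell and 0.17 ± 1.09 against MYC/Gfi1 tumours. The last of these turned to -0.36 without MYC/Gfi1 replicate 1.

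Cdh5 (chromosome 8, 104101625 to 104144511, plus strand) was at 5.57, 10.8 and 5.27 CPM in the N1ICD libraries. It was at 3.03 and 3.34 CPM in the MYC/Gfi1, 1.55, 3.49 and 3.24 in the MYC/Otx2 and 2.46, 6.22 and 2.19 in the S100b-cell libraries. The N1ICD tumours had the highest mean, 7.22 ± 3.11 CPM (SD, n = 3), and their libraries overlapped with S100b-cell replicate 2 only. The fitted log2 difference of N1ICD tumours was 1.38 ± 0.61 against MYC/Otx2, 1.18 ± 0.69 against MYC/Gfi1 and 0.99 ± 0.60 against S100b-cell tumours. The other 3 models overlapped with each other in Cdh5, which overlaps the antisense gene model Gm29682.

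Pecam1 (chromosome 11, 106654217 to 106750628, minus strand) was lowest in the MYC/Otx2 tumours, by a narrow gap to MYC/Gfi1 replicate 1. The exact Poisson 95% interval of that library, 7.81 to 12.1 CPM, overlapped that of MYC/Otx2 replicate 3, 7.02 to 11.1 CPM. Pecam1 was at 7.35, 7.97 and 8.90 CPM in the MYC/Otx2 libraries, below all 8 others. It was at 9.79 and 30.1 CPM in the MYC/Gfi1, 22.3, 26.8 and 19.4 in the S100b-cell and 19.7, 48.8 and 32.1 in the N1ICD libraries. The SD was 0.781 CPM over the MYC/Otx2 libraries and 14.6 CPM over the N1ICD libraries (n = 3 each). The fitted log2 difference was 2.05 ± 0.46 for N1ICD and 1.50 ± 0.45 for S100b-cell tumours, both against MYC/Otx2. It was 0.56 ± 0.44 for N1ICD against S100b-cell and 0.75 ± 0.50 against MYC/Gfi1 tumours, with overlapping libraries in both.

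Kdr (chromosome 5, 75932827 to 75978458, minus strand) was lower in every S100b-cell library than in any MYC/Otx2 or N1ICD library. It was at 41.5, 50.2 and 27.4 CPM in the S100b-cell, 59.3, 89.8 and 51.2 in the MYC/Otx2, 32.9 and 148 in the MYC/Gfi1 and 90.5, 138 and 131 in the N1ICD libraries. The gap between S100b-cell and MYC/Otx2 libraries was narrow. The exact Poisson 95% interval of S100b-cell replicate 2, 46.6 to 54.0 CPM, overlapped that of MYC/Otx2 replicate 3, 46.5 to 56.2 CPM. In order of their means, the N1ICD tumours were at 120 ± 25.5 CPM (SD, n = 3), the MYC/Gfi1 at 90.4 ± 81.4 (SD, n = 2), the MYC/Otx2 at 66.8 ± 20.4 (SD, n = 3) and the S100b-cell at 39.7 ± 11.5 CPM (SD, n = 3). The MYC/Gfi1 libraries span nearly the whole range of the study, and MYC/Gfi1 overlaps each of the other models. The fitted log2 difference was 1.59 ± 0.49 for N1ICD against S100b-cell and 0.84 ± 0.48 against MYC/Otx2 tumours, with no overlap in either. Against MYC/Gfi1 tumours it was 0.40 ± 0.54, and it was -0.30 without MYC/Gfi1 replicate 1 and 1.86 without replicate 2. Kdr and Pecam1 therefore did not order the models alike, since S100b-cell tumours were lowest in Kdr and second highest in Pecam1.

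Over the 7 tested genes of the 10, all libraries of the N1ICD tumours lay above all MYC/Otx2 libraries for 6 (Tal1, Sox7, Erg, Cdh5, Pecam1 and Kdr) and below them for none, where 41.5% of all tested genes did not overlap in either direction. The same held for 3 against MYC/Gfi1 (Tal1, Sox7 and Cdh5, with 38.0% of all tested genes) and for 2 against S100b-cell tumours (Tal1 and Kdr, with 26.1%), again with none below. Their median log2 fold change was 1.85 against MYC/Otx2, 0.75 against MYC/Gfi1 and 0.99 against S100b-cell tumours, beside 0.14, -0.01 and -0.06 over all tested genes. These shares describe genes that were chosen for their levels and that passed the limit on low counts, and they support nothing about the 10 genes as a set. Between the other models, S100b-cell tumours lay above MYC/Otx2 tumours for Pecam1 and Erg and below for Kdr (50.4% of all tested genes in either direction), and MYC/Otx2 below MYC/Gfi1 tumours for Pecam1 (43.6%). S100b-cell lay above MYC/Gfi1 tumours for Sox7 (41.3%).

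**Figure D3:**
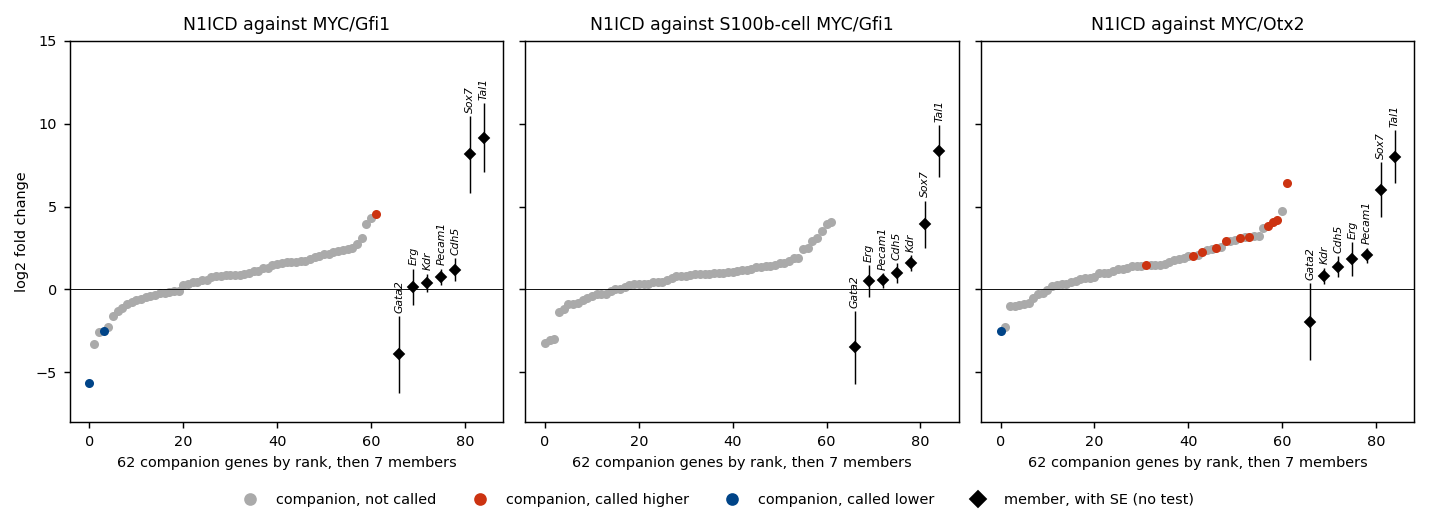
Fitted log2 fold changes of N1ICD tumours against each other model: 62 further endothelial genes in rank order (grey, or coloured where called at an edgeR adjusted p under 0.05), then the 7 tested genes of the 10 as diamonds with their SE and no test. Tal1 lies above all 62 in each panel, while Erg, Kdr, Cdh5 and Pecam1 lie inside their range.

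To see whether other endothelial genes showed the same levels, 65 further genes were read in 4 lists, of which 62 were tested. Against MYC/Otx2 tumours, 11 of the 62 were higher in N1ICD tumours, 1 was lower and 50 did not pass, where 12.0% of all tested genes were called higher and 9.76% lower. Their median log2 fold change was 1.44, beside 0.14 over all tested genes. The count was 2 without MYC/Otx2 replicate 1, 3 without MYC/Otx2 replicate 3 and 5 without N1ICD replicate 2. It was 11 without MYC/Otx2 replicate 2 and 18 without either MYC/Gfi1 library, so it depended on the libraries in the fit. Over all tested genes the 3315 calls also fell, to 1654 without MYC/Otx2 replicate 1, 1712 without MYC/Otx2 replicate 3 and 2226 without N1ICD replicate 2. The cause of these changes was not tested.

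Calcrl, the receptor subunit for adrenomedullin, was at 27.4, 78.1 and 144 CPM in the N1ICD libraries. It was at 5.65, 6.73 and 2.54 CPM in the MYC/Otx2, 5.25 and 1.74 in the MYC/Gfi1 and 19.0, 4.50 and 9.23 in the S100b-cell libraries. All N1ICD libraries lay above all others. The log2 difference was 4.06 ± 0.78 against MYC/Otx2 (edgeR adjusted p = 0.00736) and 4.55 ± 0.96 against MYC/Gfi1 tumours (edgeR adjusted p = 0.0188). The first was kept in 16 of 16 alternatives, and the second was lost without MYC/Gfi1 replicate 2 and in a fit of the 2 groups alone. Against S100b-cell tumours the difference of 2.93 ± 0.74 did not pass (edgeR adjusted p = 0.0875). Unc5b, a guidance receptor of sprouting tip cells, was at 18.0, 20.9 and 51.5 CPM in N1ICD against 0.706, 5.36 and 4.28 CPM in MYC/Otx2 libraries, and its difference of 3.12 ± 0.71 (edgeR adjusted p = 0.0144) was also kept in 16 of 16 alternatives.

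Other genes higher in N1ICD than in MYC/Otx2 tumours were high in different N1ICD libraries. The junction protein gene Esam was at 22.7, 387 and 297 CPM in N1ICD replicates 1, 2 and 3, as Tal1 was high in replicates 2 and 3. The VEGF receptor gene Flt1 was at 116, 41.5 and 40.6 CPM, highest in replicate 1. The arterial connexin gene Gja4 was at 1.71, 87.9 and 21.5 CPM, and the growth factor gene Pdgfb at 0.857, 16.7 and 10.1 CPM. The log2 differences were 3.82 ± 0.84 for Esam (edgeR adjusted p = 0.0129), 2.28 ± 0.53 for Flt1 (0.0159), 6.41 ± 1.53 for Gja4 (0.0177) and 4.17 ± 1.19 for Pdgfb (0.0329). All 4 calls were lost without MYC/Otx2 replicate 1, and all but that of Esam without MYC/Otx2 replicate 3. The call of Pdgfb was lost in 4 further alternatives. Efnb2, Nr2f2, Ets1, Klf2 and Cd93 were also called higher, each kept in 9 to 13 of 16 alternatives.

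Nrp2, a coreceptor of venous and lymphatic vessels that neurons also express, was lower, at 3.00, 8.72 and 15.8 CPM in N1ICD and 43.8, 62.2 and 52.7 CPM in MYC/Otx2 libraries. Its difference of -2.52 ± 0.76 (edgeR adjusted p = 0.0412) was kept in 7 of 16 alternatives and lost without any one MYC/Otx2 library and without N1ICD replicate 1 or 2. No gene of the blood-brain barrier list (10 tested) passed in this comparison (3 at an unadjusted p under 0.05, 3 by DESeq2). Its summed level was 84.5 to 135 CPM in the N1ICD and 59.9 to 85.9 CPM in the MYC/Otx2 libraries.

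Against MYC/Gfi1 tumours, 1 of the 62 was higher (Calcrl) and 2 were lower (Ets2 and Prox1), with a median log2 fold change of 0.88 beside -0.01 over all tested genes. Here 5.47% of all tested genes were called higher and 6.05% lower. The count was 6 without N1ICD replicate 1 and 1 without N1ICD replicate 3. Prox1, a factor of lymphatic endothelium and of neurons, was at 5.14, 1.05 and 2.03 CPM in the N1ICD against 168 and 102 CPM in the MYC/Gfi1 libraries (-5.64 ± 1.21, edgeR adjusted p = 0.0201), a call lost without N1ICD replicate 2 or 3. Ets2, an ETS factor of many tissues, was at 18.9, 56.8 and 20.7 against 119 and 242 CPM (-2.49 ± 0.55, edgeR adjusted p = 0.0216), a call lost without MYC/Gfi1 replicate 2 or N1ICD replicate 3.

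Against S100b-cell tumours none of the 62 passed with edgeR, while 16 had an unadjusted p under 0.05 and 11 were called by DESeq2. The count was 1 without either MYC/Gfi1 library and 2 without N1ICD replicate 1. The median was 0.87 beside -0.06, and 1.21% of all tested genes were called. Between S100b-cell and MYC/Gfi1 tumours none passed with edgeR (4 at an unadjusted p under 0.05, 2 by DESeq2), where 4.35% of all tested genes did, with a median of -0.18 beside 0.01.

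A few endothelial factors were lower in MYC/Otx2 than in S100b-cell or MYC/Gfi1 tumours. Foxq1, a brain endothelial transcription factor, was at 0.141, 0.498 and 0 CPM there, 5.71 and 7.26 in the MYC/Gfi1 and 13.7, 8.37 and 10.2 CPM in the S100b-cell libraries. At 2.14, 0.349 and 1.62 CPM the N1ICD libraries overlapped with the MYC/Otx2 libraries. Klf2, induced by flow, was at 6.36, 10.3 and 7.40 CPM in MYC/Otx2 and 23.9, 29.7 and 48.2 CPM in S100b-cell libraries. S100b-cell tumours were higher by 5.56 ± 0.95 for Foxq1 (edgeR adjusted p = 0.00567) and 2.08 ± 0.39 for Klf2 (edgeR adjusted p = 0.00788), both kept in 16 of 16 alternatives, and 2 more of the 62 were lower, Mecom (kept in 9 of 16 alternatives) and Egfl7 (kept in 6). Over all tested genes 17.9% were called in either direction there. MYC/Otx2 tumours were lower than MYC/Gfi1 tumours for Foxq1, Klf2 and Ets2, with 3.03% of all tested genes called lower, and all 3 calls were lost without MYC/Gfi1 replicate 2.

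Other lists moved with the N1ICD tumours beside the endothelial genes, and their part in the levels above was not tested. Of 15 genes of pericytes and smooth muscle, the cells that wrap vessels, 11 were higher against MYC/Otx2, 7 against MYC/Gfi1 and 2 against S100b-cell tumours, and none was lower. Over all tested genes, 12.0%, 5.47% and 0.808% were called higher in these comparisons. Their summed level was 358, 6945 and 2915 CPM in the N1ICD libraries and 75.7 to 234.5 CPM in the 8 others, so all 3 N1ICD libraries were above, and replicates 2 and 3 far more so. The count against MYC/Otx2 became 4 without MYC/Otx2 replicate 1 and 6 without replicate 3. That against MYC/Gfi1 became 1 without either MYC/Gfi1 library, 3 without N1ICD replicate 2 and 2 without N1ICD replicate 3. That against S100b-cell tumours became 0 without S100b-cell replicate 2 or 3 or N1ICD replicate 3, and 1 without S100b-cell replicate 1, N1ICD replicate 2 or any one MYC/Otx2 library. It was 7 without N1ICD replicate 1. Myh11, the myosin of smooth muscle, was at 0, 258 and 47.5 CPM in the N1ICD libraries and at 3.05 CPM or less in the others. Notch3, the Notch receptor of pericytes, was at 11.1, 122 and 97.8 CPM in N1ICD and 1.09 to 5.36 CPM in the other libraries. Its difference of 4.22 ± 0.81 against MYC/Otx2 tumours (edgeR adjusted p = 0.00736) was kept in 16 of 16 alternatives. Pdgfrb, the receptor that recruits pericytes, was at 26.6, 200 and 92.5 CPM against 1.98, 6.48 and 10.2 CPM in MYC/Otx2 libraries (4.09 ± 0.87, edgeR adjusted p = 0.0115).

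The summed level of 6 Notch target genes known from vessels was 704 to 1127 CPM there and 31.5 to 78.0 CPM in the others. Of the 6, 5 were higher against MYC/Otx2, 5 against S100b-cell and 4 against MYC/Gfi1 tumours, and none was lower. In these comparisons 12.0%, 0.808% and 5.47% of all tested genes were called higher. The count against S100b-cell tumours became 0 without S100b-cell replicate 3, 2 without S100b-cell replicate 1 or 2 and 3 without N1ICD replicate 2 or 3 or any one MYC/Otx2 library. That against MYC/Gfi1 became 2 without MYC/Gfi1 replicate 2. Hey2 was at 105, 73.6 and 70.2 CPM in the N1ICD libraries and under 1 CPM in the 8 others. Hes1, at 18.0, 17.1 and 27.2 CPM in the N1ICD libraries, overlapped with MYC/Otx2 replicate 3 (20.5 CPM) and S100b-cell replicate 3 (24.9 CPM). Jag1, a Notch ligand, was at 47.2, 375 and 160 CPM. It so had the order of the summed pericyte and smooth muscle list over these libraries, an order that not every gene of that list had.

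Of 7 vessel growth factor genes and receptors, 4 were higher against MYC/Otx2 tumours (Pgf, Figf, Angpt1 and Nrp1), 1 against MYC/Gfi1 (Figf) and none against S100b-cell tumours with edgeR (3 at an unadjusted p under 0.05, 2 by DESeq2), where 12.0%, 5.47% and 0.808% of all tested genes were called higher. Pgf, a ligand of Flt1, was at 45.9, 107 and 45.9 CPM in N1ICD and 0.848, 0 and 0.116 CPM in MYC/Otx2 libraries (7.70 ± 1.00, edgeR adjusted p = 0.00148). Figf (VEGF-D), a growth factor of lymphatic vessels, was at 6.43, 8.02 and 6.49 CPM in the N1ICD libraries and at 1.17 CPM or less in the others, with 0 counts in both MYC/Gfi1 libraries. Angpt1, which steadies vessels, was at 89.2, 15.7 and 10.5 CPM against 1.27, 1.99 and 1.39 CPM in MYC/Otx2 libraries (4.62 ± 0.82, edgeR adjusted p = 0.00508). The difference from MYC/Otx2 tumours was not particular to N1ICD tumours. S100b-cell tumours were also higher than MYC/Otx2 tumours for Angpt1, Pgf and Figf, where 17.9% of all tested genes were called in either direction. These calls were kept in 16 of 16 alternatives for Angpt1 and Pgf and in 4 of 15 for Figf.

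**Figure D4:**
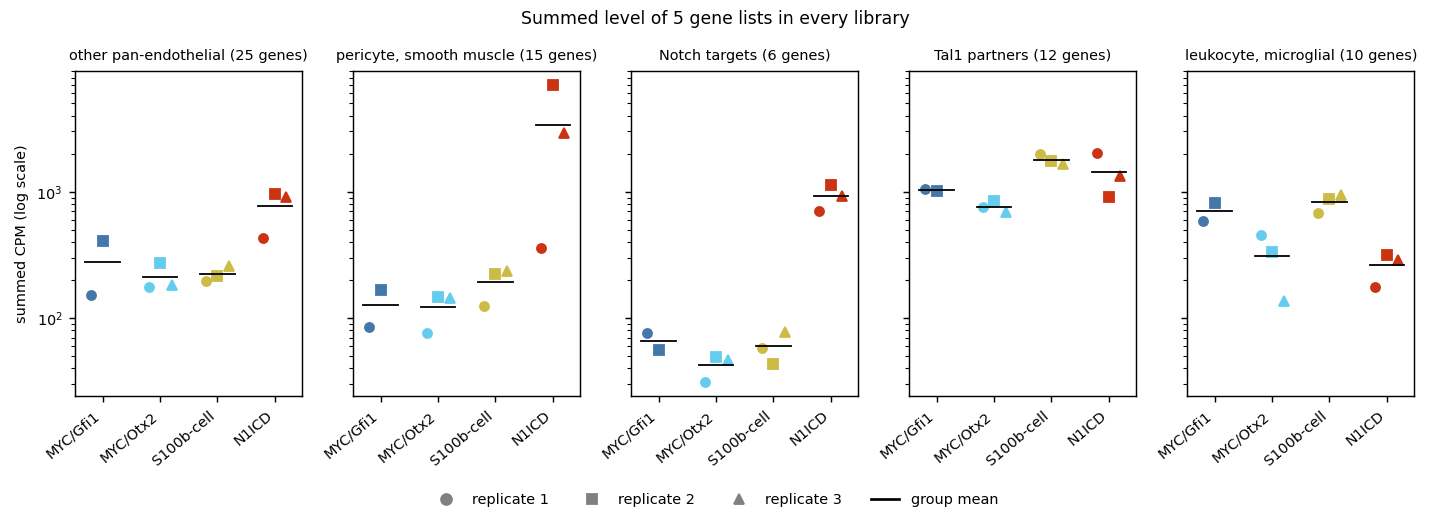
Summed CPM of 5 gene lists in every library, on a log scale, with symbols for replicates and bars for group means. The pericyte and smooth muscle list is at 358, 6945 and 2915 CPM in N1ICD replicates 1, 2 and 3, and the Notch target list is at 704 to 1127 CPM in them and 78.0 CPM or less in the other libraries.

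The tested genes with levels most like Tal1 over the 11 libraries, by Pearson's r of log2 CPM, were Map3k7cl, Vill and Accsl (0.97 each), Notch3 (0.96), Rgsl1 and Olfr558 (0.95 each). Map3k7cl was at 0.857, 31.0 and 13.0 CPM in the N1ICD libraries, Vill at 0.429, 21.3 and 16.6 and Olfr558, an odorant receptor gene, at 0.857, 577 and 108 CPM. All 6 are higher in N1ICD replicates 2 and 3 than in replicate 1, although Rgsl1 reaches only 2.03 CPM and Notch3 is at 11.1 CPM in replicate 1, and the correlation rests on these libraries, which share a style of library name. The 6 genes most like Cdh5 were Cav2 (0.94), a caveolin of endothelium, Prnd (0.92), a prion-like gene of brain endothelium, Adam9 (0.87), and Vcl, Syap1 and Adamts2 (0.86 each). Cav2 was at 11.1, 33.1 and 18.7 CPM in the N1ICD libraries and at 6.43 CPM or less in the others, and its highest library, like that of Cdh5, was N1ICD replicate 2.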

How the data were processed

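The 11 tumour libraries were QuantSeq forward libraries, which read the 3′ end of mRNA. Per the labels' protocols, they were made from TRIzol-extracted RNA, with unique molecular identifiers introduced in the second strand step. Per the submitters' processing notes the tools were STAR 2.4.1d and HTSeq 0.6.1 with build mm10. Neither states the strand setting, the release of the annotation or any collapse of identifiers. The authors deposited raw counts per gene symbol, with no normalization.

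Genes passing filterByExpr (15228 of 38406) entered one edgeR 4.0.16 quasi-likelihood fit (TMM, robust, R 4.3.3) over the 4 groups, because 1 group had 2 libraries. Its common biological coefficient of variation came to 0.562. In each of 6 comparisons the two-sided p-values of all tested genes were adjusted (Benjamini-Hochberg) and called at 0.05. Each SE is the absolute log2 fold change divided by the root of the F statistic.

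The 10 genes and 16 companion lists were chosen with earlier results of these data known (197 of 201 symbols, the 10 included, were in the table). Named companions were, per list and comparison, up to 4 called genes with the smallest p and up to 2 uncalled with the highest CPM, all tested neighbours of Tal1, and the 6 genes most like Tal1 and Cdh5 (log2 CPM, prior count 2, numbered gene models left out). A selection is printed, and some results are not reported here. Positions are from a GENCODE annotation of GRCm38 (mm10) and promoters from RefSeq. Alternatives were RLE scaling, no filter, DESeq2 1.42.0, 2-group fits, a replicate block and each library left out. For lists outside the endothelial genes they were chosen after seeing the data. The fit was checked on simulated counts.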

Additional observations from a re-analysis of the deposited data

How the results depend on the processing

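Of the 62 tested endothelial genes beside the 10, edgeR called 3 for N1ICD against MYC/Gfi1, 0 against S100b-cell and 12 against MYC/Otx2 tumours. DESeq2 called 9, 11 and 23. In the other comparisons edgeR called 0 for S100b-cell against MYC/Gfi1, 4 for S100b-cell against MYC/Otx2 and 3 for MYC/Otx2 against MYC/Gfi1 tumours, and DESeq2 2, 11 and 10. A fit of the 2 groups alone called 0 for N1ICD against MYC/Gfi1, 11 for S100b-cell against MYC/Otx2 and 0 for MYC/Otx2 against MYC/Gfi1 tumours. With single libraries left out, the counts ranged from 1 to 6 for N1ICD against MYC/Gfi1, 0 to 2 against S100b-cell and 2 to 18 against MYC/Otx2 tumours. They ranged from 0 to 0 for S100b-cell against MYC/Gfi1, 2 to 6 for S100b-cell against MYC/Otx2 and 0 to 7 for MYC/Otx2 against MYC/Gfi1 tumours. The cause of these changes was not tested, and fewer libraries or groups enter some of the fits. RLE scaling and the fit with no filter kept these counts within 1.5 times.

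Replicate numbers did not pair the libraries. The deviations of same-numbered libraries correlated at -0.169 to 0.187 (15 pairs, 3 over 0.1), and those of other pairs at -0.268 to 0.268. With the replicate number as a block the endothelial calls were 7 for N1ICD against MYC/Otx2 and 1 for MYC/Otx2 against MYC/Gfi1 tumours.

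Over all tested genes, DESeq2 called 3369 genes in place of 1754 for N1ICD against MYC/Gfi1 and 1360 in place of 185 against S100b-cell tumours. The fit of 2 groups alone called 15 and 83, the block 789 and 59, and fits without 1 library 797 to 2214 and 9 to 283. For N1ICD against MYC/Otx2 tumours the 3315 calls ranged from 1654 to 4067 without 1 library. For S100b-cell against MYC/Gfi1 tumours 663 became 2306 with DESeq2, 0 with 2 groups, 102 with the block and 12 to 1995 without 1 library. For S100b-cell against MYC/Otx2 tumours 2727 became 4327 with DESeq2, 4622 with 2 groups and 1192 to 3482 without 1 library. For MYC/Otx2 against MYC/Gfi1 tumours 832 became 2695 with DESeq2, 365 with 2 groups, 209 with the block and 65 to 2170 without 1 library.

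Among the fitted log2 fold changes of the tested genes of the 10, over 6 comparisons, 5 moved by more than 1 SD without MYC/Gfi1 replicate 1, 3 without MYC/Gfi1 replicate 2, 6 without N1ICD replicate 1 and 2 without S100b-cell replicate 2. Over its 3 N1ICD comparisons the fitted value for Tal1 ranged from 7.29 (against MYC/Otx2, without N1ICD replicate 3) to 9.74 (against MYC/Gfi1, without N1ICD replicate 1), leaving aside the fit against MYC/Gfi1 without MYC/Gfi1 replicate 2, where that group has 0 counts of Tal1 and the fitted value is no bound. Depth limits the low genes: 3 counts over the N1ICD group amount to 0.391 CPM, above the pooled level of Lyl1 and Gata2 there.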
